A study of Mus musculus with 8 samples.

Results

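The unfolded protein response and the integrated stress response were followed through 34 genes, taken by gene symbol from a table of read counts for 54188 genes. The 34 members comprise 5 sensors and transcription factors, 9 genes for the chaperone BiP, for GRP94 and for their co-factors, 6 lectin chaperones and disulfide isomerases, 5 genes of ER-associated degradation, 4 of translocation into the ER and 5 targets of ATF4 and CHOP. All 34 members passed the filter on low counts, as did 17650 genes in all. RNA came from CD11b+Gr-1hi and CD11b+Gr-1lo cells sorted from spleen (SP) and bone marrow (BM) of sanroque mice, a lupus model. The mice were about 20 weeks old, had a C57BL/6 background, were labelled female, and descended from an intercross made to obtain Roquin(san/san) homozygotes. By the labels every group carried this allele, and no wild-type library was among the 8, so each comparison is between tissues or between subsets of mutant mice. Each group had 2 libraries, with BM Gr-1lo as 11 and 12, SP Gr-1lo as 7 and 8, BM Gr-1hi as 9 and 10, and SP Gr-1hi as 5 and 6. The study calls them independent biological replicates and the BM cells autologous, but the labels tie no library to a mouse. By the sex-linked genes *Xist* and *Ddx3y*, given below, no BM library matched library 5. The labels name Gr-1hi cells G-MDSC and Gr-1lo cells M-MDSC, the granulocytic and monocytic kinds of myeloid-derived suppressor cell.

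The ER folds proteins that are to be secreted or placed in membranes. When unfolded proteins collect there, 3 membrane sensors start the unfolded protein response: IRE1 splices the mRNA of the transcription factor XBP1, ATF6 is cut to release a transcription factor, and PERK phosphorylates the initiation factor eIF2. The first pair mainly raises chaperones, isomerases and the degradation machinery. Phosphorylated eIF2, which other kinases also produce in the integrated stress response, lowers overall translation while ATF4 and CHOP are made and raise genes for amino acid supply, redox balance and recovery of translation. Plasma cells are known for high amounts of ER chaperones, as are other cells that secrete or store much protein.

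Library totals ranged from 33453580 to 68316154 gene-assigned reads, and levels are given as CPM, reads of a gene per 1000000 reads, after TMM scaling. For a gene without reads the limit is 3 counts, 0.0348 to 0.124 CPM, for counting error alone. *Ly6g*, a granulocyte marker, stood at 685 and 801 CPM in BM Gr-1hi and 330.0 and 495 CPM in SP Gr-1hi libraries, against 3.07 to 8.23 CPM in the 4 Gr-1lo libraries. *Csf1r*, a monocyte marker, stood at 436 to 754 CPM in Gr-1lo and 133 to 375 CPM in Gr-1hi libraries. Libraries 5 and 7 stood apart. *Xist*, transcribed from the inactive X of females, was at 363 CPM in library 5 and 209 CPM in library 7, and at most 0.102 CPM in the other 6 libraries. *Ddx3y*, a Y-linked gene, was at 0 in library 5 and at 33.7 to 82.6 CPM in the other 7, although all mice are labelled female. Library 7 thus held reads of both genes. In the BM libraries *Xist* was at most 0.102 CPM and *Ddx3y* at 52.5 to 79.1 CPM, so high *Xist* occurred in SP only. Each comparison of SP with BM that includes library 5 or 7 is therefore partly one between libraries with and without *Xist*. Counts are therefore also given without libraries 5 and 7, which leaves 1 library in each SP group, assumed to vary like the other groups.

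Per exon length, in TPM (transcripts per 1000000 transcripts), the members were together more abundant in Gr-1lo libraries. Their summed TPM was 4772 and 4617 in BM Gr-1lo, 4212 and 3628 in SP Gr-1lo, 1163 and 1129 in BM Gr-1hi, and 1390 and 1495 in SP Gr-1hi libraries. The 4 Gr-1lo libraries therefore all lay above the 4 Gr-1hi libraries on this scale. *P4hb*, the founding protein disulfide isomerase, had the highest level of the 34 in both Gr-1lo groups, with 734 and 695 TPM in BM and 616 and 524 TPM in SP. *Calr*, for the lectin chaperone calreticulin, came next with 553 and 577 TPM in BM and 479 and 369 TPM in SP Gr-1lo. The libraries of these 2 genes did not overlap in BM or in SP. *Atf4* had the highest level of the 34 in both Gr-1hi groups, with 152 and 133 TPM in BM and 113 and 172 TPM in SP. Its neighbours were *P4hb* in BM Gr-1hi, at 72.9 and 91.3 TPM, and *Hspa5* in SP Gr-1hi, at 108 and 138 TPM, and the *Atf4* range overlapped only that of *Hspa5*. *Trib3* had the lowest level in each group, at 0.99 to 2.52 TPM over the 8 libraries.

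**Figure D1:**
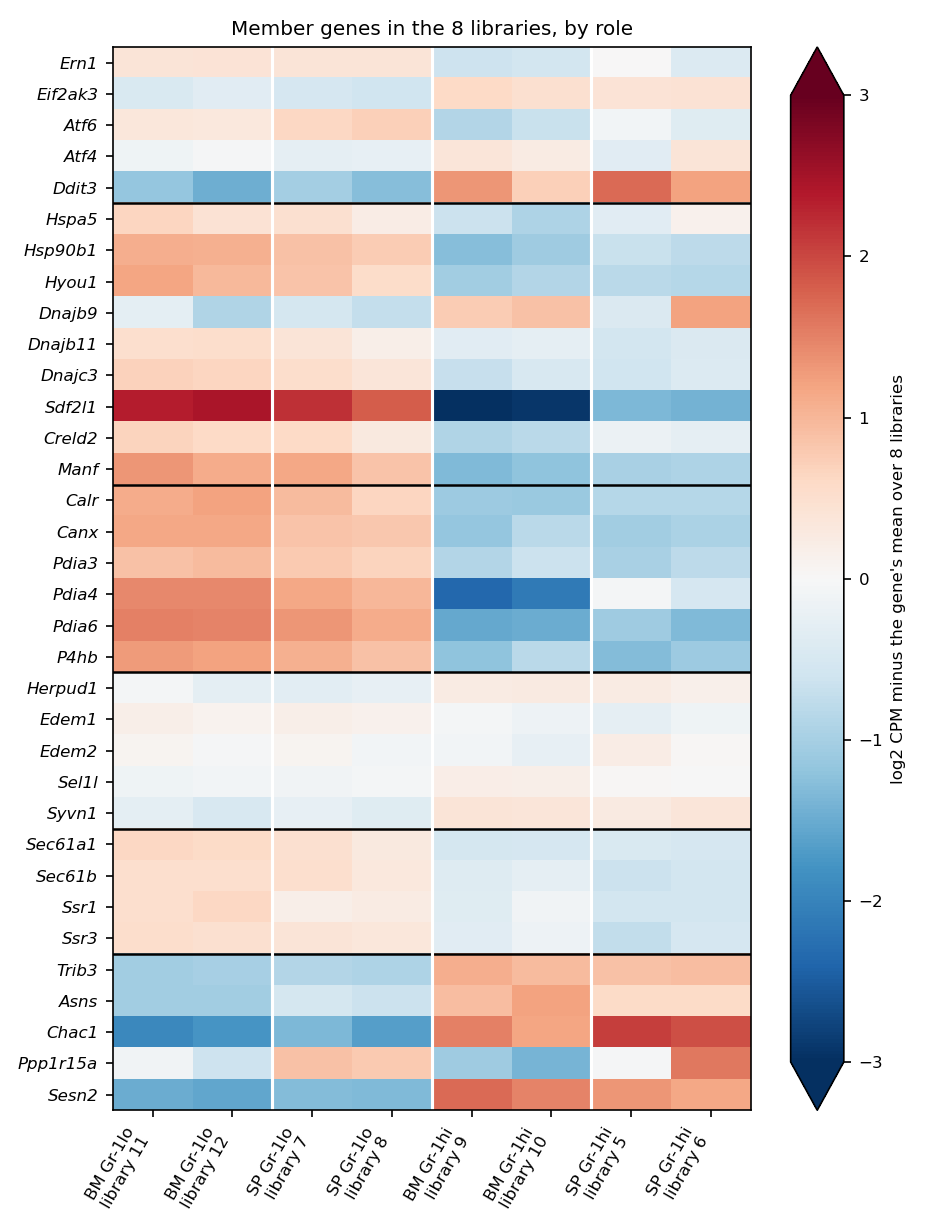
Each row is a member gene, ordered by role, and each column a library. Colour gives the log2 CPM minus that gene's mean over the 8 libraries. Chaperone, isomerase and translocation genes other than *Dnajb9* are red in the 4 Gr-1lo columns, and *Ddit3*, *Trib3*, *Asns*, *Chac1* and *Sesn2* are red in the 4 Gr-1hi columns.

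Some members share short DNA elements before their start sites. The ER stress response element (ERSE: CCAAT, 9 bases, CCACG) is a known element of ATF6 and XBP1 targets. It was searched on both strands of the 250 bases before the RefSeq start (GRCm38.p6), and 30 of the 34 members had such a window, all but *Atf6*, *Hyou1*, *Manf* and *Sec61a1*. Of the 30, 8 members held an ERSE, beside 0.13% of the 27025 genes searched (35 genes). Many members are genes that these factors are known to raise, so a share above that of all genes is no independent result. The matches are shown because they all belong to chaperone, isomerase or degradation genes, and are written along the motif with both ends in capitals and the spacer in lower case:

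Hspa5, chr2:34772025-34772043: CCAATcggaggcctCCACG
Hsp90b1, chr10:86705638-86705656: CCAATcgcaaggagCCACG
Hsp90b1, chr10:86705533-86705551: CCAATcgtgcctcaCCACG
Dnajc3, chr14:118937827-118937845: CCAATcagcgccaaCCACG
Creld2, chr15:88819520-88819538: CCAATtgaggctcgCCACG
Calr, chr8:84847075-84847093: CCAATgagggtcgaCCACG
Canx, chr11:50325800-50325818: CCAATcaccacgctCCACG
Pdia6, chr12:17266491-17266509: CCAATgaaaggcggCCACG
Syvn1, chr19:6046532-6046550: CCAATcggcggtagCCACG

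*Hsp90b1*, for GRP94, held 2 matches. The matches of *Creld2*, *Calr* and the second of *Hsp90b1* lay on the strand opposite to the gene, and the 9 matches began between 44 and 212 bases before the start site. The shorter ERSE-II (ATTGG, 1 base, CCACG) occurred in *Herpud1* only, beside 0.037% of all genes. The C/EBP-ATF element (TGATGNAA), which ATF4 and CHOP dimers are known to bind, occurred in 3 members, *Herpud1*, *Asns* and *Chac1*, beside 3.907% of all genes. *Asns* and *Chac1* are members as targets of these factors, so this share is no independent result either. These matches are shown along the motif, with a lower case letter for the spacer of ERSE-II:

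Herpud1, chr8:94386377-94386387: ATTGGgCCACG
Herpud1, chr8:94386317-94386324: TGATGCAA
Asns, chr6:7693225-7693232: TGATGAAA
Chac1, chr2:119351049-119351056: TGATGCAA

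No member held the UPRE (TGACGTGG), which 0.603% of all genes held. None of the motifs found overlapped another. A match describes the letters only, and binding was not measured here.

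The setting of the matches is shown for 3 members that stand for 3 roles, *Hsp90b1*, *Herpud1* and *Chac1*, in the gene's direction with matches in capitals. The stretches end before both the RefSeq and the GENCODE start of the gene:

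Hsp90b1, chr10:86705510-86705694, minus strand: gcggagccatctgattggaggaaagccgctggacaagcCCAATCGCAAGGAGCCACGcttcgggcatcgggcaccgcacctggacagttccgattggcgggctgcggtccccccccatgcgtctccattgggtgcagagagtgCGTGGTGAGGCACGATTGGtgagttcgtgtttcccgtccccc

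Herpud1, chr8:94386179-94386428, plus strand: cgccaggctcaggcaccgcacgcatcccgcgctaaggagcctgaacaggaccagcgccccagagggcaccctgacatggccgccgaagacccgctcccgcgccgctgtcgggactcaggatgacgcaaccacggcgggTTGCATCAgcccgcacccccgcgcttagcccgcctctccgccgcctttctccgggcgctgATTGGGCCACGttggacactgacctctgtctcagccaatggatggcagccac

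Chac1, chr2:119350992-119351228, plus strand: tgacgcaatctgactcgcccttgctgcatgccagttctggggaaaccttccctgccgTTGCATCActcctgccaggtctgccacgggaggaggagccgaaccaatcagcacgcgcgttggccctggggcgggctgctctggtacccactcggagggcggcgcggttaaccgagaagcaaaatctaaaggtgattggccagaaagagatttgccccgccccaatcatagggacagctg

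**Figure D2:**
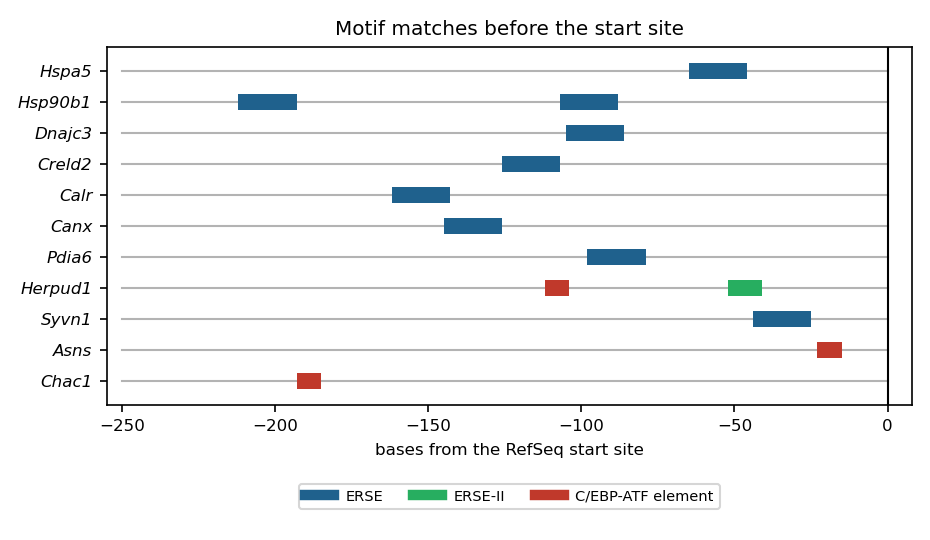
Lines show the 250 bases before the RefSeq start site of the 11 members with a match, with distance from the start in bases, and bars show ERSE, ERSE-II and C/EBP-ATF matches. The ERSE matches spread from 212 to 26 bases before the start, and *Herpud1* holds both an ERSE-II and a C/EBP-ATF match.

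The first comparison was of Gr-1hi with Gr-1lo cells, within BM and within SP. Member genes that fold, modify and import proteins in the ER, with the exception of *Dnajb9*, were lower in Gr-1hi cells of both tissues. *Ddit3* and the member targets of ATF4 and CHOP other than *Ppp1r15a* were higher. Other ATF4 targets, described further on, were mostly lower (12 of 17 tested in BM and 10 in SP). A gene was called at an adjusted p of at most 0.05 in edgeR's quasi-likelihood test over 17650 genes. In BM, 31 of 34 members (91.2%) were called, 10 higher and 21 lower, beside 75.7% of all genes tested. In the lower direction these were 61.8% of members beside 41.2% of genes, and in the higher direction 29.4% beside 34.5%. In SP, 29 members (85.3%) were called, 8 higher and 21 lower, beside 71.4% of all genes, with 37.8% of genes lower and 33.6% higher. The median log2 fold change (FC, Gr-1hi over Gr-1lo) was -0.86 over the members and -0.17 over all genes in BM, and -0.72 and -0.09 in SP. At an FC of at least 2 as well, 21 members were called in BM (57.3% of all genes) and 16 in SP (49.6%). The libraries of the 2 subsets did not overlap in 34 members in BM and 31 in SP, beside 88.9% and 86.2% of all genes. The same 21 members were lower in both tissues, 8 were higher in both, *Dnajb9* and *Sel1l* were called in BM and not in SP, a difference that the interaction described further on did not call, and *Atf4*, *Edem2* and *Ppp1r15a* were called in neither. Without libraries 5 and 7, 33 members were called in BM and 28 in SP, of which 31 and 26 were among those called with all 8 libraries. Over all genes, the share called was lower in both tissues in that fit. In bulk samples, fewer cells of a type and less RNA per cell cannot be told apart. Gr-1hi libraries had TMM factors of 0.724 to 0.863 and Gr-1lo libraries 1.26 to 1.30. With library totals alone, the share of higher genes among all genes called went from 45.6% to 25.2% in BM and from 47% to 27.7% in SP, and the median over all genes to -0.99 and -0.69.

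Among the sensors and factors, the 3 sensors of the ER membrane did not move together. *Ern1*, for IRE1, was at 110.3 and 111 CPM in BM Gr-1lo, 109.6 and 110.0 in SP Gr-1lo, 54.5 and 57.6 in BM Gr-1hi and 84.6 and 62.8 CPM in SP Gr-1hi libraries. It was lower in Gr-1hi cells in BM (log2 FC -0.98 ± 0.13, adjusted p = 0.000138) and in SP (log2 FC -0.57 ± 0.13, adjusted p = 0.00370), where ± gives the SE. *Atf6* was at 122 and 119 CPM in BM Gr-1lo, 148 and 158 in SP Gr-1lo, 52.0 and 59.9 in BM Gr-1hi and 91.3 and 75.0 CPM in SP Gr-1hi libraries. It was lower in Gr-1hi cells in BM (log2 FC -1.10 ± 0.12, adjusted p = 3.10e-05) and SP (log2 FC -0.88 ± 0.12, adjusted p = 0.000162), and the libraries of the 2 subsets did not overlap. *Eif2ak3*, for PERK, went the other way, at 98.8 to 112 CPM in the Gr-1hi and 48.9 to 58.7 CPM in the Gr-1lo libraries (BM log2 FC 0.93 ± 0.09, SP 0.97 ± 0.09). With library totals alone its BM change was 0.12 and was not called. *Ddit3*, for the transcription factor CHOP, was at 4.49 and 3.61 CPM in BM Gr-1lo, 4.94 and 4.14 in SP Gr-1lo, 25.0 and 16.4 in BM Gr-1hi and 32.7 and 23.1 CPM in SP Gr-1hi libraries. Each Gr-1hi library was therefore above each Gr-1lo library, with log2 FC 2.36 ± 0.25, adjusted p = 3.95e-05 in BM and log2 FC 2.63 ± 0.25, adjusted p = 2.57e-05 in SP. *Ddit3* overlaps *Mars* on the opposite strand and a second, shorter *Ddit3* entry on its own strand, which was kept apart and also rose (log2 FC 2.45 ± 0.30 in BM and 2.64 ± 0.29 in SP). *Atf4*, whose protein is known to be controlled mainly at translation, was at 128 to 210 CPM with log2 FC 0.39 ± 0.20 in BM and 0.31 ± 0.20 in SP, and neither passed. The BM value was called higher under 7 of 15 alternatives, with RLE scaling (0.54), in DESeq2 (0.49), with no filter (0.29), in the fit of 4 libraries (0.45), without library 5 (0.47) or 6 (0.46) and without libraries 5 and 7 (0.34). The SP value was called without library 5 (0.60) and without libraries 5 and 7 (0.59).

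Of the 9 genes around BiP and GRP94, 8 were lower in Gr-1hi cells of both tissues. *Sdf2l1*, for a partner of the co-chaperone ERdj3, had the largest difference of all members in BM, and in SP the second to *Chac1*. It was at 62.2 and 66.1 CPM in BM Gr-1lo, 55.0 and 42.4 in SP Gr-1lo, 1.38 and 1.61 in BM Gr-1hi and 4.79 and 4.50 CPM in SP Gr-1hi libraries. The difference was -5.42 ± 0.18 in BM (adjusted p = 1.0e-07) and -3.39 ± 0.15 in SP (adjusted p = 6.31e-07) on the log2 scale. *Manf*, for a secreted and ER-resident factor, was at 70.3 and 60.8 CPM in BM Gr-1lo, 63.2 and 51.6 in SP Gr-1lo, 11.3 and 12.2 in BM Gr-1hi and 14.5 and 14.9 CPM in SP Gr-1hi libraries. Its log2 FC was -2.48 ± 0.13 in BM and -1.96 ± 0.13 in SP (adjusted p = 5.77e-07 and 3.15e-06). *Hsp90b1*, with the pair of ERSE matches above, was at 496 and 489 CPM in BM Gr-1lo, 428 and 393 in SP Gr-1lo, 96.2 and 111 in BM Gr-1hi and 146 and 136 CPM in SP Gr-1hi libraries. Its log2 FC was -2.25 ± 0.10 in BM and -1.55 ± 0.10 in SP (adjusted p = 2.91e-07 and 2.92e-06). *Hspa5*, for BiP, was at 437 and 375 CPM in BM Gr-1lo, 385 and 323 in SP Gr-1lo, 178 and 147 in BM Gr-1hi and 218 and 303 CPM in SP Gr-1hi libraries. The BM groups lay far apart (log2 FC -1.32 ± 0.18, adjusted p = 0.000163), whereas in SP library 6 came close to library 8 and the call was marginal (log2 FC -0.44 ± 0.18, adjusted p = 0.0493). It was smallest without libraries 5 and 7 (log2 FC -0.11, adjusted p = 0.60), and 7 of 15 alternatives lost the SP call, among them RLE scaling (log2 FC -0.31, adjusted p = 0.132), DESeq2 (-0.35, adjusted p = 0.116) and the fits without library 7 (-0.34, adjusted p = 0.208) and without library 5 (-0.25, adjusted p = 0.228). *Creld2*, for another stress-induced ER protein, was at 27.3 and 26.0 CPM in BM Gr-1lo, 25.8 and 21.1 in SP Gr-1lo, 9.08 and 9.70 in BM Gr-1hi and 15.1 and 14.1 CPM in SP Gr-1hi libraries (BM log2 FC -1.50 ± 0.13, SP -0.68 ± 0.12). For *Sdf2l1*, *Manf*, *Hsp90b1*, *Hspa5* and *Creld2*, the 4 Gr-1lo libraries were all above the 4 Gr-1hi libraries. *Hyou1*, a nucleotide exchange factor of BiP, fell by 2.04 in BM and 1.54 in SP on the log2 scale, *Dnajc3* by 1.25 and 0.95, and *Dnajb11* by 0.83 and 0.79. *Dnajb9*, for the co-chaperone ERdj4, was the exception at 27.3 and 18.1 CPM in BM Gr-1lo, 23.6 and 20.6 in SP Gr-1lo, 57.4 and 62.2 in BM Gr-1hi and 25.0 and 77.4 CPM in SP Gr-1hi libraries. It was higher in BM Gr-1hi cells (log2 FC 1.40 ± 0.50, adjusted p = 0.0415), a call lost without filter (adjusted p = 0.215) and without any 1 of libraries 7 to 12 (adjusted p of 0.0762 to 0.198), and with library totals alone the log2 FC was 0.58 (adjusted p = 0.289). In SP library 5 lay just above the Gr-1lo values and library 6 far above (log2 FC 1.21 ± 0.50, adjusted p = 0.0674), and without library 5 the gene was called (1.79).

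All 6 lectin chaperones and disulfide isomerases were lower in Gr-1hi cells, by at least 2-fold in both tissues. *Pdia4* was at 79.6 and 79.6 CPM in BM Gr-1lo, 65.5 and 58.5 in SP Gr-1lo, 5.76 and 6.73 in BM Gr-1hi and 28.1 and 20.7 CPM in SP Gr-1hi libraries. The BM groups differed by -3.67 ± 0.17 and the SP groups by -1.35 ± 0.15 on the log2 scale (adjusted p = 2.94e-07 and 5.11e-05). *Pdia6* was at 214 and 209.6 CPM in BM Gr-1lo, 187 and 162 in SP Gr-1lo, 26.1 and 26.6 in BM Gr-1hi and 35.8 and 30.0 CPM in SP Gr-1hi libraries. Its log2 FC was -3.01 ± 0.12 in BM and -2.41 ± 0.12 in SP, and it overlaps *Atp6v1c2* on the opposite strand. *Calr* was at 512 and 545 CPM in BM Gr-1lo, 458 and 367 in SP Gr-1lo, 112 and 109.8 in BM Gr-1hi and 130.1 and 129.7 CPM in SP Gr-1hi libraries. Its log2 FC was -2.25 ± 0.11 in BM and -1.67 ± 0.11 in SP. *Canx* (-2.14 ± 0.12 in BM, -1.82 ± 0.12 in SP), the membrane-bound relative of *Calr*, *P4hb* (-2.24 ± 0.14, -2.17 ± 0.14) and *Pdia3* (-1.67 ± 0.11, -1.61 ± 0.11), the isomerase that works with both lectins, had log2 FC of like size in both tissues. For *Pdia4*, *Pdia6* and *Calr*, the lowest Gr-1lo library was more than 2 times the highest Gr-1hi library. These 6 calls held under each of the 15 alternatives in both tissues.

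The 5 genes of ER-associated degradation changed little and in both directions, and no change reached 2-fold. *Syvn1*, the ubiquitin ligase HRD1, was at 44.8 and 39.7 CPM in BM Gr-1lo, 46.3 and 43.0 in SP Gr-1lo, 71.7 and 70.5 in BM Gr-1hi and 66.5 and 70.6 CPM in SP Gr-1hi libraries. It was higher in Gr-1hi cells (0.75 ± 0.10 in BM, 0.62 ± 0.10 in SP), but with library totals alone the BM value was -0.06 and the SP value 0.02, and neither was called. *Herpud1*, which belongs to the same ligase complex, was at 55.6 and 47.6 CPM in BM Gr-1lo, 46.4 and 48.9 in SP Gr-1lo, 68.7 and 69.4 in BM Gr-1hi and 68.3 and 64.5 CPM in SP Gr-1hi libraries. It was higher by 0.42 ± 0.10 in BM and 0.48 ± 0.10 in SP, the BM call was lost without library 12 (adjusted p = 0.0582), and by the library totals the values were below 0, called in BM (-0.39) and not in SP (-0.12). *Edem1*, which marks glycoproteins for disposal, was at 285 and 270.5 CPM in BM Gr-1lo, 285 and 273 in SP Gr-1lo, 243 and 226 in BM Gr-1hi and 207 and 228 CPM in SP Gr-1hi libraries. It was lower in Gr-1hi cells (log2 FC -0.25 ± 0.09 in BM and -0.36 ± 0.09 in SP), and 9 of 15 alternatives lost the BM call, among them the fits without library 5, 6, 9, 10 or 11 (adjusted p of 0.0756 to 0.374) and RLE scaling (-0.09, adjusted p = 0.340). The libraries of the 2 subsets did not overlap for *Syvn1*, *Herpud1* and *Edem1*. *Sel1l*, the adaptor of *Syvn1*, was higher in BM (0.29 ± 0.08, adjusted p = 0.00731) and not called in SP (0.09 ± 0.08). The BM call was lost without library 11 (adjusted p = 0.0824), and the SP value was called with RLE scaling (0.23). Scaled by library totals alone, *Sel1l* was lower in BM (-0.52) and in SP (-0.51, adjusted p = 0.000347). *Edem2* was at 51.2 to 70.4 CPM, with log2 FC -0.19 ± 0.11 in BM and 0.13 ± 0.11 in SP that were not called. It was called lower in BM with no filter (-0.29), and with library totals alone in both tissues (-1.0 and -0.47).

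The 4 translocation genes were lower in Gr-1hi cells of both tissues by 0.75 to 1.11 on the log2 scale. *Sec61a1*, for the pore of the translocon, was at 196 and 192 CPM in BM Gr-1lo, 178 and 158 in SP Gr-1lo, 89.3 and 90.8 in BM Gr-1hi and 93.2 and 91.0 CPM in SP Gr-1hi libraries (BM -1.11 ± 0.09, SP -0.87 ± 0.09). *Sec61b*, for a small subunit of it, was at 75.6 and 75.5 CPM in BM Gr-1lo, 74.7 and 66.4 in SP Gr-1lo, 40.9 and 44.3 in BM Gr-1hi and 34 and 36.0 CPM in SP Gr-1hi libraries (BM -0.83 ± 0.10, SP -1.01 ± 0.10). *Ssr3*, for a subunit of the translocon-associated TRAP complex, was at 259 and 250 CPM in BM Gr-1lo, 235 and 228 in SP Gr-1lo, 141 and 161 in BM Gr-1hi and 108 and 126 CPM in SP Gr-1hi libraries. In these 3 genes the subsets did not overlap. The log2 FC of *Ssr3* was -0.75 ± 0.10 in BM and -0.98 ± 0.11 in SP, and that of *Ssr1*, of the same complex, -0.80 ± 0.11 and -0.76 ± 0.11.

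Of the 5 targets of ATF4 and CHOP, 4 were higher in Gr-1hi cells of both tissues and held under each of the 15 alternatives. *Chac1*, for an enzyme that degrades glutathione, was at 0.697 and 0.775 CPM in BM Gr-1lo, 1.03 and 0.846 in SP Gr-1lo, 7.59 and 6.03 in BM Gr-1hi and 11.2 and 10.1 CPM in SP Gr-1hi libraries. No Gr-1hi library was below 6.03 CPM and no Gr-1lo library above 1.03 CPM, with log2 FC 3.21 ± 0.22, adjusted p = 2.03e-06 in BM and log2 FC 3.52 ± 0.21, adjusted p = 2.09e-06 in SP. *Sesn2*, for the leucine sensor Sestrin 2, was at 13.4 and 12.8 CPM in BM Gr-1lo, 15.3 and 15 in SP Gr-1lo, 123 and 106 in BM Gr-1hi and 94.4 and 84.7 CPM in SP Gr-1hi libraries. It was the largest increase in absolute level (log2 FC 3.13 ± 0.11, adjusted p = 1.29e-07 in BM, log2 FC 2.56 ± 0.11, adjusted p = 5.20e-07 in SP). *Asns*, for asparagine synthetase, was at 6.13 and 6.14 CPM in BM Gr-1lo, 8.72 and 8.05 in SP Gr-1lo, 24.1 and 28.9 in BM Gr-1hi and 18.7 and 18.8 CPM in SP Gr-1hi libraries (log2 FC 2.11 ± 0.13, adjusted p = 1.07e-06 in BM, log2 FC 1.17 ± 0.12, adjusted p = 4.18e-05 in SP). *Trib3*, a pseudokinase that restrains CHOP and ATF4, rose by 2.05 ± 0.24 in BM and 1.80 ± 0.23 in SP from 0.676 to 0.760 CPM in Gr-1lo libraries. *Ppp1r15a*, for the phosphatase subunit GADD34 that reverses eIF2 phosphorylation, was at 45.4 and 31.9 CPM in BM Gr-1lo, 90.6 and 85 in SP Gr-1lo, 23.3 and 18.6 in BM Gr-1hi and 48.1 and 148 CPM in SP Gr-1hi libraries. It was not called in BM (-0.88 ± 0.51) or SP (0.16 ± 0.49), and in SP libraries 5 and 6 lay on both sides of the Gr-1lo values. The SP value was called in opposite directions without library 5 (0.73) and without library 6 (-0.89), and the BM value was called with 1 of these left out (-0.81 and -0.81), without libraries 5 and 7 (-0.93), in the fit of 4 libraries (-0.82) and with library totals alone (-1.70).

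**Figure D3:**
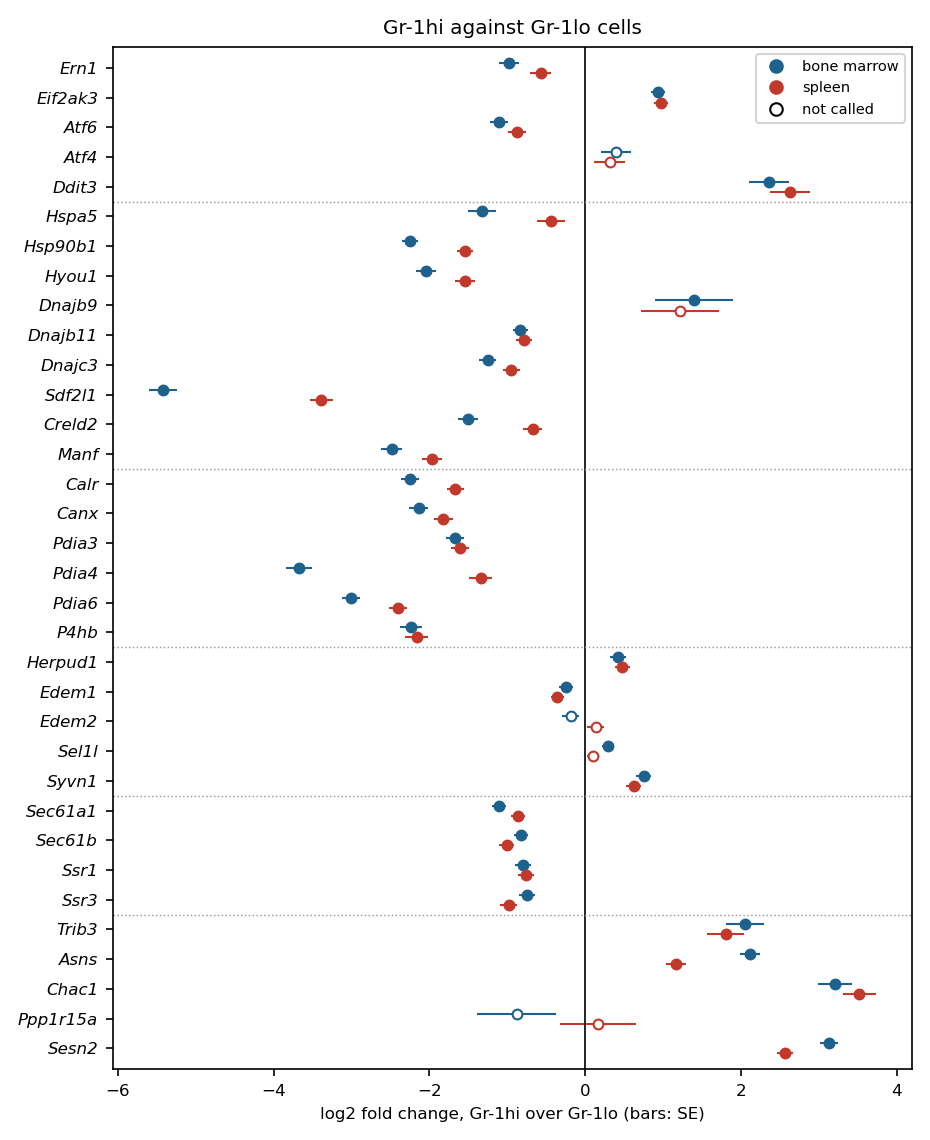
Points give the log2 FC of each member, Gr-1hi over Gr-1lo, in BM (blue) and SP (red), with bars for the SE and open points for genes not called. *Sdf2l1* lies farthest left at -5.42 in BM and -3.39 in SP, and *Chac1* farthest right at 3.21 and 3.52.

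The members split by promoter element as follows. Of the 8 members with an ERSE, 7 were lower and *Syvn1* was higher in Gr-1hi cells (not by library totals, as given above), in BM and again in SP, with a median log2 FC of -1.82 and -1.25. Of the 22 members searched without one, 10 were lower and 9 higher in BM, and 10 lower and 7 higher in SP, with medians of -0.22 and 0.11. Among these 22 were the chaperone and isomerase genes *Sdf2l1* (-5.42 in BM), *Pdia4* (-3.67), *P4hb* (-2.24), *Pdia3* (-1.67), *Dnajb11* (-0.83) and *Dnajb9* (1.40). Element and role therefore overlap, and the part of the element was not tested. The 3 members with a C/EBP-ATF element were higher in both tissues, with the exception by library totals given above for *Herpud1*. Markers of the stage at which granulocytes make primary granules moved with the chaperones. The summed level of 5 such genes, *Mpo*, *Elane* and *Prtn3* the most abundant, was 3253 to 3289 CPM in BM Gr-1lo, 1200 to 2147 in SP Gr-1lo, 39.7 to 43.3 in BM Gr-1hi and 12.4 to 20.7 CPM in SP Gr-1hi libraries. All 5 were detected in each group. The 7 monocyte markers summed to 8830 to 9750, 6445 to 6538, 1325 to 1751 and 1043 to 1165 CPM in the same order. The part of either in the differences was not tested.

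The second comparison, of SP with BM within Gr-1hi cells, asked what differs between the Gr-1hi cells of the 2 tissues. A few chaperone genes, *Pdia4* and *Sdf2l1* first, were higher in SP Gr-1hi cells, *Ppp1r15a* was higher with a wide spread, and *Asns* and *Sesn2* were lower. In all, 13 of 34 members (38.2%) were called, 9 higher and 4 lower, beside 34% of all genes tested (20.1% higher and 13.9% lower). The share of members called was thus close to that of all genes, and the median log2 FC (SP over BM) was 0.01 over the members and 0.03 over all genes. The SP and BM libraries did not overlap in 25 members (67.8% of all genes). At an FC of at least 2 as well, 3 members were called, *Sdf2l1*, *Pdia4* and *Ppp1r15a* (15.5% of all genes). Without libraries 5 and 7, 6 members were called, *Atf6*, *Hspa5*, *Sdf2l1*, *Creld2*, *Pdia4* and *Ppp1r15a*, and with only the 4 libraries compared 7. In both of these fits the share of all genes called was also lower, at 24.4% with the 4 libraries compared. With library totals alone, 13 members were higher and 0 lower, and the share of higher genes among all genes called went from 59.1% to 82.6%.

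*Pdia4* was at 28.1 and 20.7 CPM in SP against 5.76 and 6.73 CPM in BM Gr-1hi libraries (log2 FC 1.97 ± 0.16, adjusted p = 0.000175). *Sdf2l1* was at 4.79 and 4.50 CPM in SP against 1.38 and 1.61 CPM in BM (log2 FC 1.64 ± 0.19, adjusted p = 0.000602). These were the only 2 of the 13 that stayed called under each of the 15 alternatives, over which their log2 FC ran from 1.65 to 2.18 and from 1.46 to 1.84. Without libraries 5 and 7 they were 1.75 and 1.6. *Hspa5* was higher at 218 and 303 against 178 and 147 CPM (log2 FC 0.68 ± 0.18, adjusted p = 0.0195), but without library 6 the log2 FC was 0.34 (adjusted p = 0.137) and without library 10 0.45 (adjusted p = 0.161). *Creld2* was at 15.1 and 14.1 against 9.08 and 9.70 CPM (log2 FC 0.64 ± 0.13, adjusted p = 0.00736) and lost its call without library 9 alone (adjusted p = 0.0596). *Hsp90b1* was at 146 and 136 against 96.2 and 111 CPM (log2 FC 0.44 ± 0.10, adjusted p = 0.0106) and lost it without library 5, without library 9, and without libraries 5 and 7 (adjusted p = 0.075, 0.120 and 0.0578). The SP libraries of these 5 genes lay above the BM libraries.

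Of the sensors, *Atf6* was higher in SP Gr-1hi cells, at 91.3 and 75.0 against 52.0 and 59.9 CPM (log2 FC 0.57 ± 0.12, adjusted p = 0.00740), a call lost without library 9 (adjusted p = 0.0779). *Ern1* was at 84.6 and 62.8 against 54.5 and 57.6 CPM (log2 FC 0.39 ± 0.13, adjusted p = 0.0472). The call was lost without library 5, where the log2 FC was 0.08 (adjusted p = 0.524), and without any 1 of libraries 7 to 12 (adjusted p of 0.0702 to 0.265). It was lost in 11 of 15 alternatives in all, the others being RLE scaling (adjusted p = 0.0954), DESeq2 (adjusted p = 0.104), the fit without libraries 5 and 7 (adjusted p = 0.307) and that of 4 libraries (adjusted p = 0.105). *Xbp1*, the mRNA that IRE1 splices and not a member, was at 247 and 204 CPM in SP against 91.3 and 91.5 CPM in BM Gr-1hi libraries (log2 FC 1.30 ± 0.12, adjusted p = 0.000239). Gene counts do not tell spliced from unspliced *Xbp1*.

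Among the targets of ATF4 and CHOP the directions differed. *Ppp1r15a* was at 48.1 and 148 CPM in SP against 23.3 and 18.6 CPM in BM (log2 FC 2.23 ± 0.52, adjusted p = 0.0204), and library 6 was 3.08 times library 5. Without library 6 the log2 FC was 1.12 and without library 5 2.74, and the call was lost without library 9 (adjusted p = 0.0659), without library 10 (adjusted p = 0.0860) and with no filter (adjusted p = 0.111). *Chac1* was at 11.2 and 10.1 against 7.59 and 6.03 CPM (log2 FC 0.65 ± 0.19, adjusted p = 0.0278), and was not called without libraries 5 and 7 (adjusted p = 0.147) or without any 1 of libraries 5, 6, 9 and 10 (adjusted p of 0.0508 to 0.218). *Asns* was lower, at 18.7 and 18.8 against 24.1 and 28.9 CPM (log2 FC -0.50 ± 0.12, adjusted p = 0.0151), and so was *Sesn2*, at 94.4 and 84.7 against 123 and 106 CPM (log2 FC -0.36 ± 0.10, adjusted p = 0.0266). Neither was called without libraries 5 and 7 (adjusted p = 0.0935 and 0.0622) or with library totals alone, and *Sesn2* also lost its call without library 7, 8 or 9 (adjusted p of 0.0529 to 0.072). *Ssr1* and *Ssr3* were lower (log2 FC -0.32 ± 0.11 and -0.37 ± 0.10), and were not called with library totals alone, without libraries 5 and 7, or without any 1 of libraries 7, 8 and 10, nor *Ssr1* without 11 or 12 (adjusted p of 0.0505 to 0.0774 for single libraries). Further members were called with 1 library left out, *Sec61b* (-0.40) and *Pdia6* (0.36) without library 6 and *Sec61b* (-0.41) and *P4hb* (-0.46) without library 9, on the log2 scale. None of the 5 degradation genes was called, with log2 FC from -0.17 to 0.29. Other scaling changed this for *Sel1l*, called lower with RLE scaling (-0.24) and in DESeq2 (-0.24). *Edem2* was called higher with upper-quartile scaling (0.37) and with library totals alone (0.50).

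Markers of several other cell types moved with this comparison. The 14 plasma cell markers summed to 2732 to 3312 CPM in SP Gr-1hi, 1898 to 2617 in SP Gr-1lo, 262 to 300 in BM Gr-1hi and 432 to 589 CPM in BM Gr-1lo libraries. *Igkc*, *Ighm* and *Ighg2c* were the most abundant of them. *Sdc1*, a surface marker of plasma cells, was at 2.32 and 1.66 CPM in SP and 0.150 and 0.248 CPM in BM Gr-1hi libraries, and *Tnfrsf17*, another, at 0.0904 and 0 CPM in SP Gr-1hi and at 0 in both BM Gr-1hi libraries. These 2 were named after their values were seen. The 10 B cell markers summed to 411 to 610 CPM in SP Gr-1hi, 75.9 to 96.6 in SP Gr-1lo, 17 to 20.8 in BM Gr-1hi and 8.6 to 10.6 CPM in BM Gr-1lo libraries. The 10 T cell markers (9 called higher) summed to 7.35 to 10.9 CPM in BM and 89.6 to 142 CPM in SP Gr-1hi libraries, the 8 splenic macrophage markers (8 higher) to 587 to 648 and 924 to 1083 CPM, and the 7 erythroid markers (6 higher) to 35.9 to 44.1 and 218 to 734 CPM. Most of the macrophage sum was *Slc40a1*, at 498 and 462 CPM in BM and 825 and 676 CPM in SP Gr-1hi libraries. In Gr-1lo libraries *Slc40a1* was at 20.2 to 31.6 CPM. The 6 NK cell markers (4 higher) summed to 2.52 to 2.88 CPM in BM and 12.1 to 15.3 CPM in SP. The 5 secondary granule genes (4 lower) summed to 64238 to 72915 CPM in BM and 29283 to 51763 CPM in SP, and 3 of 5 primary granule genes were lower. The 8 neutrophil markers (4 lower and 1 higher) summed to 107015 to 112465 CPM in BM and 64261 to 76102 CPM in SP. The part of such cells in the levels of *Pdia4*, *Sdf2l1*, *Xbp1* and the other members was not tested. Plasma cell markers also differed between SP and BM Gr-1lo libraries. *Pdia4* stood at 58.5 to 79.6 CPM and *Sdf2l1* at 42.4 to 66.1 CPM in these, above their Gr-1hi levels. Their log2 FC there, -0.36 ± 0.14 and -0.40 ± 0.13, were not called. The part of plasma cells in the Gr-1lo values was not tested either.

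**Figure D4:**
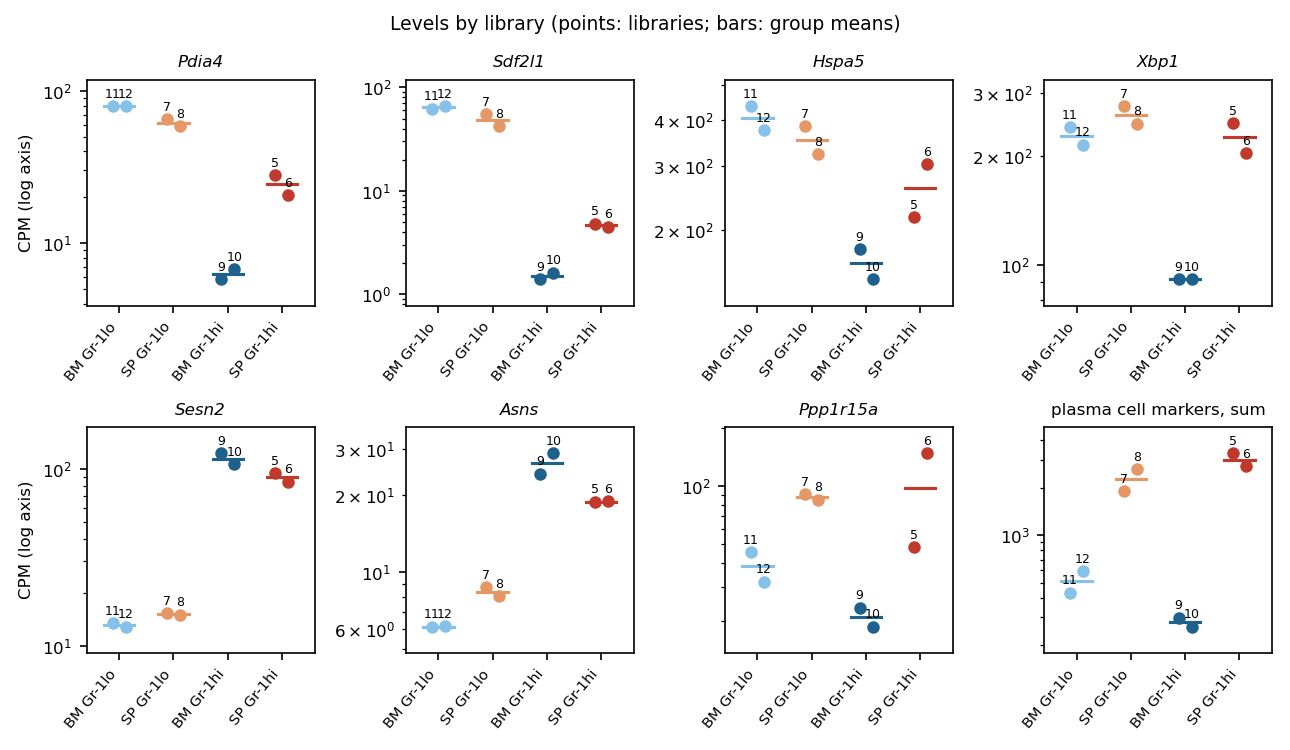
Levels in CPM on log axes for 6 members, for *Xbp1* and for the sum of the 14 plasma cell markers, with a numbered point for each library and a bar for the group mean. *Pdia4* and *Sdf2l1* in SP Gr-1hi libraries lie between the BM Gr-1hi and the Gr-1lo libraries, and *Ppp1r15a* of library 6 stands 3.08 times above library 5.

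In Gr-1lo cells, SP and BM did not differ in any member at the threshold, with 0 of 34 called beside 5.58% of all genes (4.88% higher and 0.697% lower in SP). Without adjustment, 12 members had a p of 0.05 or less (20.1% of all genes), and DESeq2 called 5, *Hsp90b1*, *Hyou1*, *Calr*, *Canx* and *Ssr1*, each lower in SP. The median log2 FC was -0.16 over the members and -0.01 over all genes, 24 members were below 0, and in 25 the libraries of SP and BM did not overlap (59.7% of all genes). The 6 lectin chaperones and isomerases had log2 FC from -0.36 to -0.18, the 9 genes around BiP from -0.40 to -0.04, and the 4 translocation genes from -0.36 to -0.10. *Calr* had -0.36 ± 0.11 (adjusted p = 0.114) and *Ssr1* -0.36 ± 0.10 (adjusted p = 0.0993). The 5 targets of ATF4 and CHOP had values above 0, from 0.12 to 1.18. *Asns* was at 8.72 and 8.05 CPM in SP and 6.13 and 6.14 CPM in BM Gr-1lo libraries (log2 FC 0.45 ± 0.13, adjusted p = 0.0867), and *Ppp1r15a* at 90.6 and 85 and 45.4 and 31.9 CPM (log2 FC 1.18 ± 0.50, adjusted p = 0.256). The libraries of both genes did not overlap between SP and BM, yet neither passed. *Ppp1r15a* and *Atf6* were called without library 5 (log2 FC 1.2 and 0.36) and without library 6, neither of which is a Gr-1lo library, since all libraries share the estimate of the spread. With only the 4 Gr-1lo libraries fitted, 6 members were called, beside 12.1% of all genes. These were *Atf6*, *Asns* and *Ppp1r15a*, higher in SP, and *Canx*, *Pdia4* and *Ssr1*, lower in SP. Without libraries 5 and 7 the log2 FC of *Sdf2l1* was -0.61 and that of *Calr* -0.54.

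**Figure D5:**
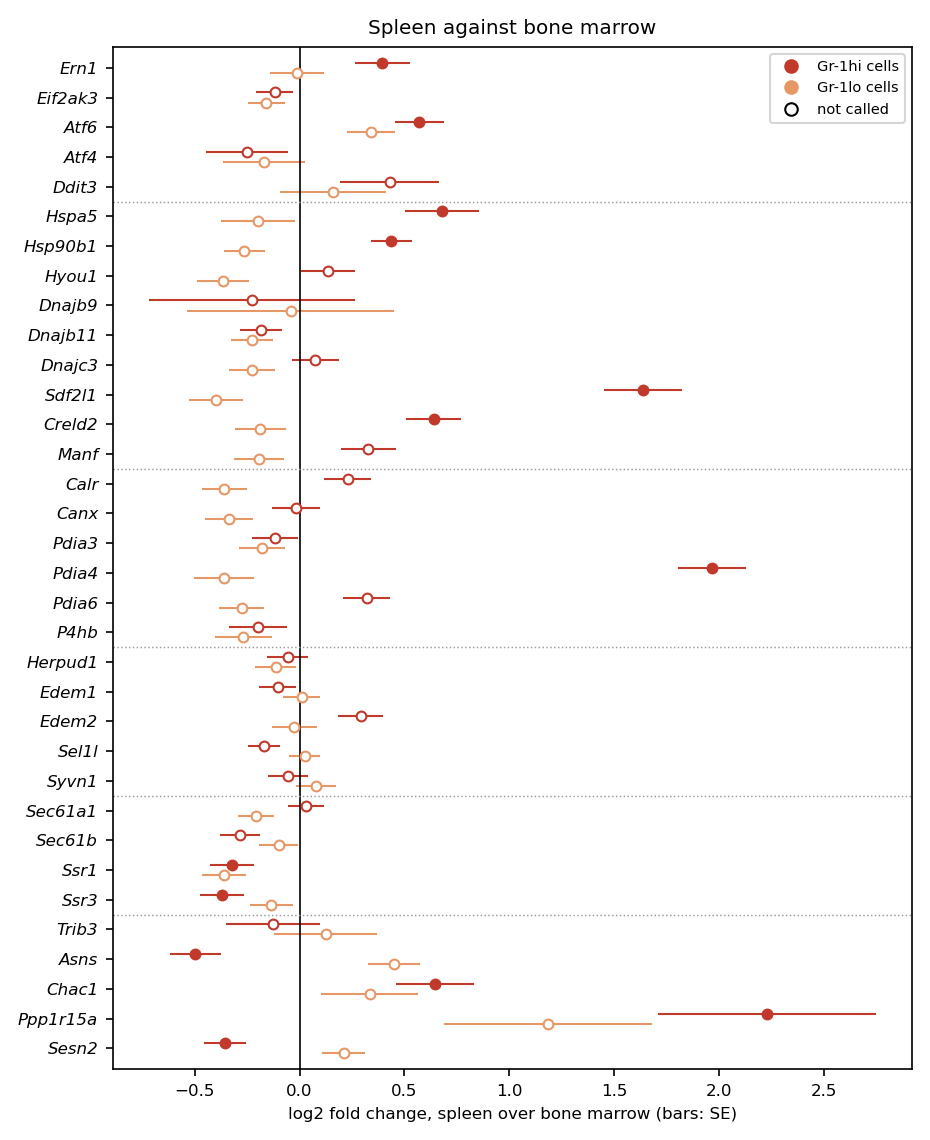
Points give the log2 FC of each member, SP over BM, in Gr-1hi (red) and Gr-1lo cells (orange), with bars for the SE and open points for genes not called. *Ppp1r15a* (2.23), *Pdia4* (1.97) and *Sdf2l1* (1.64) lie farthest right in Gr-1hi cells, and all points of Gr-1lo cells are open.

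The test of the difference itself, the interaction of tissue and subset, asked whether SP and BM differed by another amount in Gr-1hi than in Gr-1lo cells. It called 9 of 34 members (26.5%), 7 positive and 2 negative, beside 16.4% of all genes (10.3% positive and 6.08% negative), and at a size of at least 1 on the log2 scale 2 members beside 9.74% of all genes. *Pdia4* had the largest interaction (log2 FC 2.33 ± 0.22, adjusted p = 0.00162), followed by *Sdf2l1* (log2 FC 2.04 ± 0.23, adjusted p = 0.00248). For both, SP was above BM in Gr-1hi cells, with values below 0 that did not pass in Gr-1lo cells (-0.36 ± 0.14 and -0.40 ± 0.13). They were the 2 interactions that stayed called under each of the 14 alternatives, and without libraries 5 and 7 were 2.20 and 2.21. *Hspa5* (log2 FC 0.88 ± 0.25, adjusted p = 0.0473), *Creld2* (log2 FC 0.83 ± 0.18, adjusted p = 0.0190), *Hsp90b1* (log2 FC 0.70 ± 0.14, adjusted p = 0.0141), *Pdia6* (log2 FC 0.60 ± 0.16, adjusted p = 0.0362) and *Calr* (log2 FC 0.59 ± 0.15, adjusted p = 0.0372) were also positive. Of these, *Hsp90b1* lost its call without library 8 or 9 (adjusted p of 0.0672 to 0.0679), *Creld2* without library 5 or any of 8 to 12 (0.0534 to 0.0799), and *Calr* without library 5, 6 or any of 8 to 12 (0.0661 to 0.142, all adjusted p). *Hspa5* lost it without any 1 of libraries 6 to 12 (adjusted p of 0.0778 to 0.164), and *Pdia6* without library 5 or any of 7 to 12 (adjusted p of 0.0565 to 0.143) and without libraries 5 and 7 (adjusted p = 0.0590). Leaving out 1 library at a time left 3 to 11 members called, with 3 without library 8 or 9, 4 without 11 or 12 and 5 without 10. Over all genes, the share called was also lower without any 1 library other than 6, and higher without library 6. *Ppp1r15a* was called without library 5 (1.54), and *Ern1* (0.51), *Atf4* (-0.57), *Dnajb9* (-1.31) and *Ssr3* (-0.45) without library 6. *Asns* (log2 FC -0.95 ± 0.17, adjusted p = 0.0113) and *Sesn2* (log2 FC -0.57 ± 0.14, adjusted p = 0.0335) were negative, with SP below BM in Gr-1hi cells and values above 0 that did not pass in Gr-1lo cells. Neither was called without libraries 5 and 7 (adjusted p = 0.0756 and 0.0963), nor *Sesn2* without library 7, 8, 9, 11 or 12 (adjusted p of 0.0611 to 0.122). The interaction draws on the same libraries as the other 4 comparisons and is no separate evidence of their values. Of the 8 members with an ERSE, 5 had a called interaction, with a median of 0.59 over the 8. Of the 22 searched without one 4 did, with a median of 0.04, and these 4 include *Pdia4* and *Sdf2l1*, the 2 largest. The part of the element was not tested. No sensor, degradation or translocation gene was called. With library totals alone 12 members were called, 11 positive, and the share of positive genes among all called went from 62.9% to 85.2%.

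The wider pathway was read from 115 other genes in 7 lists, of which 108 passed the filter. In BM, 23 were higher and 73 lower in Gr-1hi cells, and in SP 19 and 73. In SP against BM, 27 were higher and 14 lower in Gr-1hi cells, 3 and 1 in Gr-1lo cells, and the interaction called 22 positive and 5 negative. The shares of all genes called are those given above for each comparison. With library totals alone the counts were 8 and 94 in BM, 9 and 91 in SP, 41 and 4 in SP against BM Gr-1hi cells and 31 and 3 in the interaction. Without libraries 5 and 7 they were 22 and 75, 16 and 66, 17 and 2, and 13 and 0.

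Of 9 other sensors and factors tested, 4 were higher and 4 lower in BM Gr-1hi against Gr-1lo cells, and 4 and 3 in SP. *Xbp1* was lower in BM Gr-1hi cells (log2 FC -1.32 ± 0.12, adjusted p = 9.53e-06) and not called in SP (-0.21 ± 0.11), and its interaction was 1.11 ± 0.16 (adjusted p = 0.00500). *Creb3l1*, a membrane-bound factor akin to ATF6, was higher in BM Gr-1hi cells (log2 FC 2.85 ± 0.26, adjusted p = 1.16e-05) with a negative interaction (-1.47 ± 0.36) that was lost without any 1 of libraries 7 to 12 (adjusted p of 0.0507 to 0.0943). In SP, *Nfe2l2*, a factor of the antioxidant response, was higher in Gr-1hi than Gr-1lo cells (log2 FC 1.22 ± 0.12, adjusted p = 2.42e-05), and *Mbtps1*, for the protease that cuts ATF6, lower (log2 FC -0.57 ± 0.09, adjusted p = 0.000359).

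The 12 genes of the other eIF2 kinases, eIF2 and eIF2B were mostly lower in Gr-1hi cells, with 9 lower in BM and in SP, and 3 and 2 higher. *Eif2b3*, a subunit of the exchange factor eIF2B, had log2 FC -4.15 ± 0.24 in BM with an interaction of 2.09 ± 0.33, and *Eif2b1* -1.67 ± 0.13 in SP. *Ppp1r15b*, the constitutive relative of *Ppp1r15a*, was higher in Gr-1hi cells (1.21 ± 0.11 in BM, 0.69 ± 0.11 in SP) and lower in SP than BM Gr-1hi cells (log2 FC -0.46 ± 0.11, adjusted p = 0.0125), though not with library totals alone. *Eif2ak4*, the kinase GCN2 that senses uncharged tRNA, was higher in SP than BM Gr-1hi cells (log2 FC 1.01 ± 0.16, adjusted p = 0.00222). It was at 8.35 and 7.11 CPM in SP Gr-1hi libraries, below the 16.1 and 17.4 CPM of SP Gr-1lo libraries.

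The other ATF4 targets did not move as the member targets did. Of 17 tested, 12 were lower and 4 higher in BM Gr-1hi cells, and 10 and 5 in SP. *Phgdh*, for the first enzyme of serine synthesis, was at 32.2 and 38.9 CPM in BM Gr-1lo, 20.2 and 16.5 in SP Gr-1lo, 0.935 and 1.28 in BM Gr-1hi and 6.45 and 6.00 CPM in SP Gr-1hi libraries. Its log2 FC was -5.01 ± 0.21 between the BM subsets and 2.5 ± 0.21 between SP and BM Gr-1hi cells, with an interaction of 3.45 ± 0.26 (adjusted p = 0.00153). It was lower in SP than in BM Gr-1lo cells (log2 FC -0.96 ± 0.15, adjusted p = 0.00838), a call lost without library 8 (adjusted p = 0.0886) or 12 (adjusted p = 0.0850). *Slc7a11*, the cystine transporter, was at 1.35 and 1.04 CPM in BM Gr-1lo, 3.02 and 3.71 in SP Gr-1lo, 56.2 and 37.4 in BM Gr-1hi and 33.8 and 44.7 CPM in SP Gr-1hi libraries and was higher in Gr-1hi cells (5.29 ± 0.28 in BM, 3.53 ± 0.24 in SP, interaction -1.76 ± 0.35). It was also higher in SP than BM Gr-1lo cells (log2 FC 1.51 ± 0.28, adjusted p = 0.0165). That call was lost without library 8, 11 or 12 and the interaction without library 8 or 12, with adjusted p of 0.124, 0.0595 and 0.142 and of 0.0647 and 0.0694. *Psat1*, of the serine pathway as well, had the smallest adjusted p among those lower in Gr-1hi than Gr-1lo cells of SP (log2 FC -3.62 ± 0.23, adjusted p = 3.16e-06). *Jdp2* had it among those lower in SP against BM Gr-1hi cells (log2 FC -0.83 ± 0.20, adjusted p = 0.0144), a call lost without library 9 (adjusted p = 0.0504). *Atf3*, a factor raised by ATF4, was at 61.5 and 58.8 CPM in BM Gr-1lo, 74.0 and 102 in SP Gr-1lo, 5.79 and 6.40 in BM Gr-1hi and 17.1 and 31.0 CPM in SP Gr-1hi libraries and was lower in Gr-1hi cells (-3.30 ± 0.29 in BM, -1.87 ± 0.26 in SP) and higher in SP than BM Gr-1hi cells (log2 FC 1.98 ± 0.29, adjusted p = 0.00218). Of 13 aminoacyl-tRNA synthetases that ATF4 is known to raise, 11 were lower in BM and 12 in SP Gr-1hi cells, and 6 were higher in SP than BM Gr-1hi cells. *Tars* had log2 FC -3.33 ± 0.12 in BM and -2.22 ± 0.11 in SP, and *Iars* 1.45 ± 0.18 in SP against BM Gr-1hi cells with an interaction of 1.78 ± 0.23.

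Of 18 other ER folding genes, 16 were lower and 1 higher in Gr-1hi cells of each tissue, and 8 were higher and 1 lower in SP than in BM Gr-1hi cells. *Sil1*, an exchange factor of BiP, had log2 FC -4.20 ± 0.21 in BM, and *Prkcsh*, for a glucosidase II subunit, -1.69 ± 0.10 in SP. *Ero1lb*, an ER oxidase, was higher in SP than BM Gr-1hi cells (log2 FC 0.90 ± 0.09, adjusted p = 0.000420, interaction 1.01 ± 0.13), and its relative *Ero1l* lower (log2 FC -0.50 ± 0.16, adjusted p = 0.0467), a call lost without library 5 or any of 7 to 12 (adjusted p of 0.0551 to 0.0928). *Ero1l* was the 1 gene higher in BM Gr-1hi against Gr-1lo cells (0.83 ± 0.17), though not with library totals alone (0.015), and *Fkbp11* that in SP (2.15 ± 0.41).

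Of 18 other degradation genes, 9 were higher and 4 lower in BM, and 6 and 5 in SP Gr-1hi cells, whereas with library totals alone 1 was higher and 14 lower in BM, and 1 and 12 in SP. *Selenos* was lower (-1.79 ± 0.14 and -1.27 ± 0.13). *Derl3*, a channel component that plasma cells are known to express, was at 3.35 and 2.30 CPM in SP Gr-1hi and 1.58 and 1.95 CPM in SP Gr-1lo libraries. It was at 0.287 and 0.491 CPM in BM Gr-1lo libraries and, in BM Gr-1hi libraries, at 0.0748 and 0.124 CPM, at or under the limit of 3 counts, so no fold is given there. It was higher in SP in both subsets, with a positive interaction, which was lost without library 5, 7, 8, 9, 10 or 12 (adjusted p of 0.0689 to 0.130). The call in Gr-1lo cells was lost without library 8 or 11 (adjusted p of 0.0722 to 0.0780). Of 21 other genes of translocation, signal peptidase and oligosaccharyltransferase, 17 were lower and 2 higher in BM, and 18 and 1 in SP Gr-1hi cells. *Ssr2*, of the same complex as *Ssr1* and *Ssr3*, had -2.45 ± 0.09 and -2.11 ± 0.09, and *Sec62* was higher (0.33 ± 0.08 and 0.37 ± 0.08), but lower with library totals alone (-0.48 and -0.23). *Srprb*, for a subunit of the receptor that docks ribosomes at the ER, was higher in SP than BM Gr-1hi cells (log2 FC 0.72 ± 0.17, adjusted p = 0.0130, interaction 0.96 ± 0.22), and *Rpn1* lower (log2 FC -0.47 ± 0.11, adjusted p = 0.0122). The first call of *Srprb* was lost without library 5, 9 or 10 (adjusted p of 0.0567 to 0.108), its interaction without library 5 or any of 7 to 11 (adjusted p of 0.0711 to 0.0893), and the call of *Rpn1* without libraries 5 and 7 (adjusted p = 0.0935).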

How the data were processed

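Raw gene counts of 8 libraries, 2 per group by their titles, were used. The authors deposited these counts as whole numbers per gene, not normalized. Per their methods, reads were checked with FastQC, trimmed with Sickle, aligned to GRCm38.p6 with STAR and counted with featureCounts, and the kit was stranded. The study's later TPM and quantile steps were not used here. The methods call the libraries of a group independent biological replicates, but the labels do not tie libraries to mice.

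Counts were filtered (filterByExpr), scaled by TMM and fitted in 1 quasi-likelihood model with 4 residual degrees of freedom in edgeR 4.0.16 (R 4.3.3), with Benjamini-Hochberg adjustment over 17650 genes. Calls needed an adjusted p of at most 0.05. The study's FC of at least 2 was an alternative, as were RLE and upper-quartile scaling, no filter, DESeq2 1.42.0, leaving out each library or libraries 5 and 7, a fit of the 4 libraries compared and, added after seeing the data, library totals alone. ± is the SE of a log2 FC. Low counts limit precision for *Trib3*, *Chac1* and *Sdf2l1*. The fit was tested on simulated data, in which the groups differed only in a set of genes changed in SP Gr-1hi libraries. In the real libraries the subsets differed in most genes, so that test does not cover this setting.

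The members and lists were chosen with earlier results of these data known. All members were named. All 8 library values were given for up to 3 members a role with the largest called change and for members with a called interaction. Of other lists, the gene with the smallest adjusted p in each direction and comparison was named, and *Xbp1* and *Atf3* always, with the members' alternatives added after seeing the data. A gene that this rule names is not reported here. Exon lengths for TPM came from GENCODE M21 (GRCm38), and 241 genes of the table were without one. Promoters were those of RefSeq.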

Additional observations from a re-analysis of the deposited data

Results flagged for a closer look

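The difference between SP and BM was itself different in Gr-1hi and Gr-1lo cells, by the interaction in edgeR's quasi-likelihood test, for 9 members. On the log2 scale the values were 2.33 ± 0.22 for *Pdia4* (adjusted p = 0.00162), 2.04 ± 0.23 for *Sdf2l1* (adjusted p = 0.00248), 0.88 ± 0.25 for *Hspa5* (adjusted p = 0.0473) and 0.83 ± 0.18 for *Creld2* (adjusted p = 0.0190). They were 0.70 ± 0.14 for *Hsp90b1* (adjusted p = 0.0141), 0.60 ± 0.16 for *Pdia6* (adjusted p = 0.0362), 0.59 ± 0.15 for *Calr* (adjusted p = 0.0372), -0.57 ± 0.14 for *Sesn2* (adjusted p = 0.0335) and -0.95 ± 0.17 for *Asns* (adjusted p = 0.0113). Over the 14 alternatives the adjusted p ran up to 0.0149 for *Pdia4* and 0.0198 for *Sdf2l1*, and above 0.05 for each of the other 7. Plasma and B cell marker sums, given above, were highest in SP Gr-1hi libraries, and their part in these values was not tested. High *Xist* occurred in SP libraries only, and apart from leaving out libraries 5 and 7 its part was not tested either.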

How the results depend on the processing

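Of the members called with all libraries, 25 of 31 in BM and 25 of 29 in SP (Gr-1hi against Gr-1lo), 2 of 13 in SP against BM Gr-1hi cells and 2 of 9 in the interaction stayed called in the same direction under each alternative other than the FC of at least 2. An FC of at least 2 left 3 members in SP against BM Gr-1hi cells, 16 in Gr-1hi against Gr-1lo cells of SP and 2 in the interaction, since fewer genes can pass it. In SP against BM Gr-1lo cells, with 0 members called, no filter gave 2, DESeq2 5, leaving out libraries 5 and 7 gave 2 and the fit of 4 libraries 6. In Gr-1hi cells, leaving out libraries 5 and 7 gave 6 and the fit of 4 libraries 7. Leaving out 1 library at a time gave 0 to 2 members in Gr-1lo cells (2 without library 5 or 6), 7 to 15 in Gr-1hi cells (8 without library 9 and 7 without library 10), 28 to 32 in BM, 28 to 31 in SP, and 3 to 11 in the interaction (3 without library 8 or 9, 4 without 11 or 12 and 5 without 10). With library totals alone, among the values called with TMM scaling, signs turned for *Herpud1* (-0.39 in BM and -0.12 in SP), *Sel1l* (-0.52 in BM), *Syvn1* (-0.063 in BM) and the other pathway gene *Sec62* (-0.48 in BM and -0.23 in SP), and *Sel1l* (-0.51) and *Edem2* (-0.47), above 0 and not called in SP with TMM scaling, were called lower there, since these totals move the median of all genes to -0.99 in BM and -0.69 in SP. The share of all genes called also changed between these fits, and for the other changes the cause was not tested. No paired analysis was possible because the groups share no replicate numbers. With 2 libraries a group, small differences may go uncalled.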

Other observations

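The 2 SP Gr-1hi libraries differed from each other by more than those of the other groups over all genes (chi-square per degree of freedom 66.7 against 18.9 to 21.3), and in 3 members by over 1.5 times. *Dnajb9* was at 25.0 and 77.4 CPM in libraries 5 and 6, *Ppp1r15a* at 48.1 and 148 CPM and *Atf4* at 128 and 209.7 CPM, with ratios of the larger to the smaller library of 3.10, 3.08 and 1.64. The median ratio over the 34 members was 1.10 in that group, 1.10 in SP Gr-1lo, 1.12 in BM Gr-1hi and 1.05 in BM Gr-1lo, and ratios above 1.5 elsewhere were 1.52 for *Ddit3* in BM Gr-1hi and 1.51 for *Dnajb9* in BM Gr-1lo. Library 6 also had more erythroid marker reads than library 5 (734 against 218 CPM over 7 genes) and more of 5 secondary granule genes (51763 against 29283 CPM). *Xist* was at 363 CPM in library 5 and 0 in library 6, and *Ddx3y* at 0 and 82.6 CPM. The part of these in the difference was not tested. Without library 6, *Atf4* was called lower in SP than BM Gr-1hi cells (log2 FC -0.73, adjusted p = 0.00101 in edgeR), as was *Dnajb9* (log2 FC -1.34, adjusted p = 0.00528).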
